A study of Danio rerio with 4 samples.

Results

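Nuclear factor kappaB (NF-kappaB) genes were examined in hearts of zebrafish embryos that lack normal Ccm2. The group held 9 genes, namely bcl3, nfkbiaa, nfkbiab, nfkb1, nfkb2, rela, relb, tnfaip3 and ikbkb, among 14434 genes named on the array. They were chosen by pathway, with bcl3 selected on its large signal difference between the same WT and mutant arrays that are described here, so the members' values are a description and no test is drawn from them. Probes were matched through the platform's gene symbols, updated by gene identifier. The annotation used here paired 8 probes with 5 of the members, and paired none with nfkb1, relb, tnfaip3 or ikbkb, which are not analysed here.

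Each sample was total RNA from hearts dissected by hand at 72 hours post fertilization (hpf) and pooled, put on 1 single-colour Agilent array. The 2 WT pools carried no stated allele and the 2 mutant pools carried the ccm2 m201 allele; no treatment is given for WT. The free-text description of both mutant pools names overexpression of Bmp2b, which their titles and genotypes do not, and the labels do not settle this. All 4 arrays lay on 1 slide. Ccm2 is an adaptor protein that endothelial and endocardial cells need to keep their vessels from dilating, and the comparison asks which cardiac transcripts depend on it. The labels do not say whether the pools of a group came from separate clutches. Errors and p-values therefore reach no further than the spread between these 4 samples, and 2 arrays per group limit the precision. Each standard error (SE) is limma's moderated one, which draws a probe's own spread toward that of all tested probes (1.97 prior and 2 residual degrees of freedom). It can be larger or smaller than the 4 values of that probe alone would give.

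NF-kappaB transcription factors are dimers of Rel proteins such as RelA and RelB with p50 or p52, which in mammals are cut from the products of nfkb1 and nfkb2. In resting cells IkappaB proteins hold these dimers in the cytoplasm; an IkappaB kinase that contains the ikbkb product marks them for degradation, and the NFKBIA gene is itself switched on by NF-kappaB in mammals, as is TNFAIP3, whose product (A20) ends the signal. Mammalian BCL3 is an unusual IkappaB protein that acts in the nucleus, where it binds p50 and p52 dimers and can raise or lower transcription. The pathway is best known from innate immunity and inflamed endothelium.

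Between 54.0% and 55.9% of the 43803 features of an array were well above background, and none was saturated. Signals are given as log2 of the processed signal, scaled so that the 75th percentile is equal on all arrays. A probe was counted as well above background where it ranked within the number of such features that the header of its array gives, which put the limit at log2 signals of 3.20 and 2.78 on the WT arrays and 2.86 and 2.60 on the mutant arrays. The targeted gene, ccm2, lay at 5.45 and 5.79 on the WT arrays and at 5.16 and 4.92 on the mutant arrays by its brighter probe, so that both mutant arrays were lower, but the difference of -0.58 ± 0.22 (SE) had an adjusted p of 0.167 in limma and was not called. Its other probe gave -0.47. The tissue label was checked with 7 cardiomyocyte markers, all well above background; limma called 0 of them, and 0 had an unadjusted p under 0.05. The brightest of them were actc1a, an actin gene, with a difference of -0.21 ± 0.23 (SE), and nppa, a natriuretic peptide gene, with 0.13 ± 0.17 (SE).

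The signal of bcl3 was not well above background in WT hearts and was well above it in mutant hearts. This pattern was shown by 250 of all 11526 tested genes, bcl3 included. The only probe of bcl3 gave processed signals of 1.59 and 1.23 on the WT arrays, where the limit was 8.23 and 6.60. On the mutant arrays it gave 145 and 309. The raw median signals of the spot, before any background subtraction, were 21 and 26 in WT and 181 and 328 in mutants. On the log2 scale the WT arrays lay at 0.83 and 0.35 and the mutant arrays at 7.13 and 8.10, so the groups did not overlap. The mutant arrays were 0.97 apart, and the WT values, both below the limit, have no order. Because no WT array measured the probe well above background, the fold is a bound: on the scaled processed signals, bcl3 was at least 24.7-fold higher in mutant hearts. The fitted difference of 7.03 ± 0.42 (SE, n = 2 arrays per group) uses the WT values as they stand and is no measure of the fold. It was 2.23 on raw median signals with normexp background correction and an offset of 50, which is below the bound. That alternative changed the input, the background correction and the offset together, and their separate parts were not tested. Whether this only probe follows bcl3 RNA alone in both groups was not tested. If it does, more cells that express bcl3 and more bcl3 RNA per cell cannot be told apart in these whole-heart pools. The ccm2 allele and the Bmp2b overexpression named for both mutant pools cannot be told apart either.

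**Figure D1:**
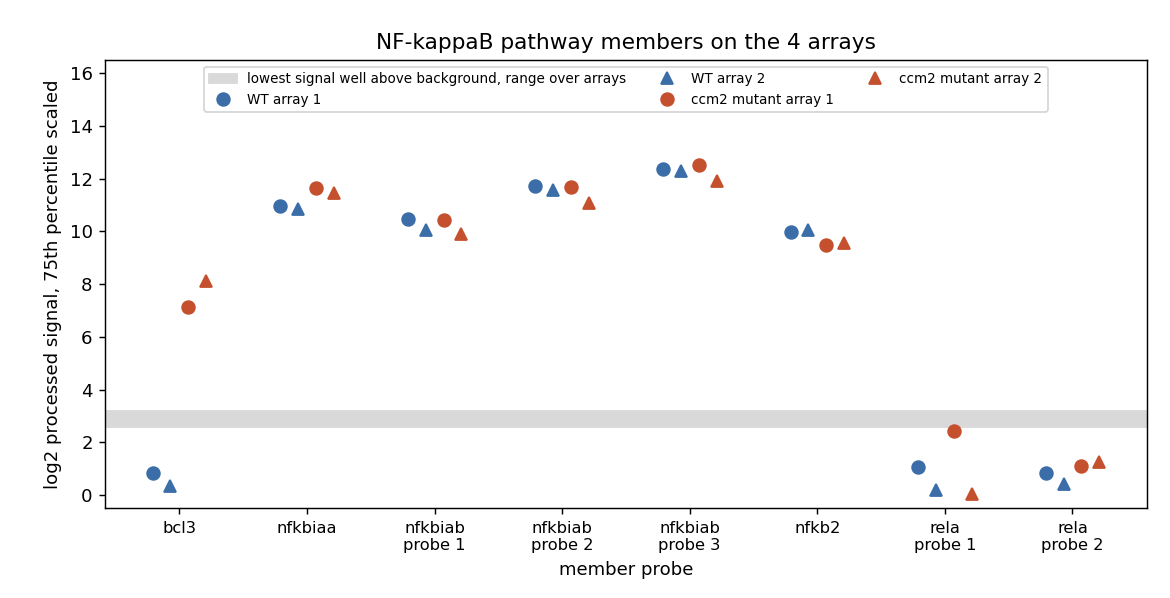
Log2 processed signal (scaled at the 75th percentile) of the 8 member probes on each array, with WT in blue and ccm2 mutants in red, circles for array 1 and triangles for array 2; the grey band spans the lowest signals taken as well above background. bcl3 lies below the band on both WT arrays and between 7.13 and 8.10 on the mutant arrays, and both rela probes lie below it throughout.

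Of the tested members, nfkbiaa and nfkbiab are inhibitor genes, and neither was called. Whether they differ from each other was not tested. Both are zebrafish counterparts of mammalian NFKBIA, which encodes the IkappaB alpha protein. nfkbiaa had log2 signals of 10.97 and 10.83 on the WT arrays and 11.64 and 11.44 on the mutant arrays. Both mutant arrays were thus higher, by at least 0.47, and the arrays within a group were at most 0.20 apart. The difference was 0.64 ± 0.19 (SE, n = 2 per group), a 1.56-fold higher signal in mutants. Among all tested genes, 38.9% had a difference of larger size, in either direction.

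nfkbiab was read by 3 probes, and all 3 overlapped between the groups. The brightest gave 12.36 and 12.30 on the WT arrays and 12.50 and 11.89 on the mutant arrays, a difference of -0.13 ± 0.27 (SE). Mutant array 1 was therefore the highest of the 4 and mutant array 2 the lowest. A second probe gave 11.71 and 11.56 in WT and 11.67 and 11.09 in mutants (-0.25 ± 0.27, SE). The third probe gave 10.45 and 10.06 in WT and 10.44 and 9.90 in mutants (-0.09 ± 0.29, SE). Mutant array 2 was again the lowest on both. The difference of the brightest probe turned to 0.17 without mutant replicate 2 and was -0.44 without mutant replicate 1, and it was 0.02 with median scaling and 0.08 with no scaling. No direction is given for nfkbiab.

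The Rel and NF-kappaB subunit genes were represented by nfkb2 and rela. nfkb2, which encodes the p100 precursor of p52 in mammals, had log2 signals of 9.99 and 10.04 on the WT arrays and 9.50 and 9.54 on the mutant arrays. It was lower on both mutant arrays, by at least 0.45, while arrays of one group differed by at most 0.05. The difference was -0.49 ± 0.17 (SE, n = 2 per group), a 1.41-fold lower signal in mutants. Among all tested genes, 48.1% had a difference of larger size than that of nfkb2, in either direction. The nfkb2 probe was not called. The nfkb2 difference was -0.34 with median scaling and -0.28 with no scaling. rela, the gene of the p65 subunit, was not well above background on any array with either of its probes. Its log2 signals ran from 0.05 to 2.43 on one probe and from 0.43 to 1.24 on the other, so no fold is given for rela and it was not tested.

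Across the members, 6 of the 8 probes passed the filter on dim signals, for 4 of the 5 genes. limma called 1 of these 6 probes, that of bcl3, against 16.0% of all 26824 tested probes; the call was lost when either mutant array was left out, when limma called 0 of all tested genes and 8394 (without mutant replicate 1) and 9066 (without mutant replicate 2) probes had an unadjusted p under 0.05. By gene, 1 of 4 tested members was called, against 17.1% of 11526 tested genes. The arrays of the groups did not overlap for 3 of the 6 probes (bcl3, nfkbiaa and nfkb2), against 63.5% of all tested probes. bcl3 passed the filter only through its mutant arrays, and nothing is read from these counts.

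**Figure D2:**
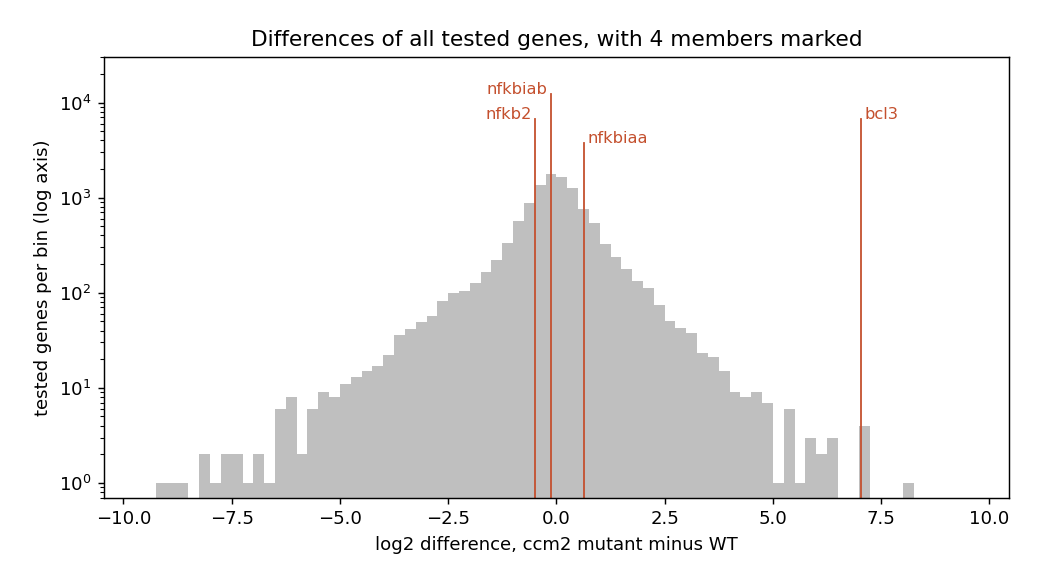
Number of tested genes per bin of the log2 difference between ccm2 mutant and WT hearts (log vertical axis), with the 4 tested members marked by lines at their brightest probe. bcl3, selected on this difference, stands at a fitted 7.03 that uses WT signals below the background limit, and nfkb2, nfkbiab and nfkbiaa lie between -0.49 and 0.64 in its centre.

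bcl3 was selected on its difference, so genes that resemble it over the 4 arrays are given as a description of that pattern. They were taken as those with the smallest Euclidean distance between log2 signals over the 4 arrays, each gene's mean subtracted. The rule named zgc:136864, vox, cd9r, bcas2 and trappc5, at distances of 0.62 to 1.15, in which values below the background limit enter as they stand and the size of the bcl3 difference has a large part. vox encodes a homeobox repressor known from ventral patterning of the early zebrafish embryo, cd9r a tetraspanin, bcas2 a spliceosome protein and trappc5 a vesicle tethering subunit. Of these, zgc:136864, vox, bcas2 and trappc5 were, like bcl3, not well above background on either WT array and well above it on both mutant arrays, so that their distances set no order among them. As bounds, zgc:136864 was at least 26.2-fold higher in mutants, vox at least 23.9-fold, bcas2 at least 43.8-fold and trappc5 at least 41.9-fold. cd9r was well above background on all 4 arrays, with a difference of 6.34 ± 0.31 (SE). vox had a second probe, well above background on only 2 of the 4 arrays. Its fitted difference of 4.75 uses the dim signals as they stand and is no measure of the fold. For bcl3, zgc:136864, cd9r, bcas2 and trappc5 there was 1 probe each.

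The other genes of the pathway were taken from 6 lists by role, with 189 genes in all, of which 123 had a probe and 104 were tested. Of these 104, 14 were higher in mutants, 6 were lower and 84 did not pass, against 8.10% of all tested genes higher and 9.03% lower. Their median log2 difference was 0.11, beside -0.04 over all tested genes. Leaving out any 1 array lowered this count of 20 calls, and none remained when either mutant replicate was left out. Such a fit leaves 1 array in a group, so nothing is read from how many genes pass in it. Each list below is to be read beside the 8.10% higher and 9.03% lower among all tested genes.

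Among the upstream ligands no rise was called. Of 6 tested ligand genes limma called 1 lower and 0 higher (median -0.30), with 1 gene at an unadjusted p under 0.05. tnfsf10, the gene of a death ligand of the TNF family, had log2 signals of 9.56 and 9.72 in WT and 8.03 and 7.91 in mutants, a difference of -1.67 ± 0.18 (SE, adjusted p = 0.0160), and its other probe gave -1.50. The classical activators were faint: tnfa and il1b were not well above background on any array, and tnfb, a second TNF gene, differed by -0.32 ± 0.18 (SE, adjusted p = 0.308).

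Among 10 tested receptor genes 2 rose and 0 fell (median 0.58). tnfrsf1a, the main receptor for TNF, had log2 signals of 9.86 and 10.11 in WT and 11.58 and 11.63 in mutants. Its difference was 1.63 ± 0.19 (SE, adjusted p = 0.0180), a 3.08-fold higher signal; its dimmer probe gave 1.16 and was not called. tlr5a, which encodes a receptor for bacterial flagellin, was not well above background in WT (2.66 and 2.62). It lay at 5.39 and 4.93 in mutants, at least 4.51-fold higher (adjusted p = 0.0124). Its other, dimmer probe gave a fitted difference of 3.87, which uses the WT signals as they stand and is not a bound. That probe was not called.

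Of 28 tested adaptors and kinases that carry the signal to the IkappaB kinase, 1 rose, 1 fell and 26 did not pass (median 0.03). The calls were 7.14% of the list, against 17.1% of all tested genes. card9, an adaptor of myeloid cells in mammals, rose from 5.11 and 5.14 in WT to 6.60 and 6.46 in mutants (1.40 ± 0.17, SE, adjusted p = 0.0200). tank, whose product binds TRAF adaptors in mammals, was at 4.81 and 4.95 in WT and 3.20 and 3.11 in mutants, and fell by 1.72 on the log2 scale (adjusted p = 0.0149), with -1.54 on its second probe. The genes of the remaining kinase subunits did not pass: chuk differed by 0.12 ± 0.17 (SE, adjusted p = 0.674) and ikbkg by -0.20 ± 0.25 (SE, adjusted p = 0.639).

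Of 12 further genes for Rel proteins, IkappaB proteins and negative regulators, limma called 0, while 2 had an unadjusted p under 0.05 (median 0.08). These were tnfaip8l2a, the counterpart of a mammalian negative regulator of immune receptors, at -0.80 ± 0.19 (SE, adjusted p = 0.0684), and nfkbiz, a gene for a nuclear IkappaB protein like Bcl3, at -0.54 ± 0.18 (SE, adjusted p = 0.136). rel, the gene of c-Rel, differed by 0.65 ± 0.27 (SE, adjusted p = 0.189). The probes of commd1, whose mammalian product promotes loss of RelA, disagreed: the brightest of 5 gave 0.01 and the others -0.69 to 0.99, of which 1 was called. Of 14 tested genes for partners and regulators of mammalian BCL3, 0 rose and 1 fell (median -0.16). This was ctbp2l, a gene of the CtBP corepressor family, with log2 signals of 3.18 and 3.64 in WT and 2.06 and 2.25 in mutants (adjusted p = 0.0446). Only WT array 2 was well above background, so no fold is given for ctbp2l.

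Among genes listed here as NF-kappaB targets in vertebrates, 11 of 34 tested were higher, 3 were lower and 20 did not pass. Over all tested genes, 8.10% were higher and 9.03% lower. The list median was 0.73, beside -0.04 over all tested genes. mmp13a, a collagenase gene, had log2 signals of 3.85 and 4.41 in WT and 8.92 and 8.62 in mutants, a rise of 4.64 ± 0.28 (SE, adjusted p = 0.00782), and 4.74 on its other probe. timp2b, the gene of a metalloproteinase inhibitor, rose from 5.68 and 5.52 to 8.60 and 8.65 (3.02 ± 0.18, SE, adjusted p = 0.00761). selp, which encodes the adhesion molecule P-selectin, was not well above background in WT (0.68 and 1.03) and lay at 3.78 on both mutant arrays, at least 1.73-fold higher. It passed the filter on dim signals only through its mutant arrays, the only list gene that did so, and its call is not used as support. Without selp, 10 of 33 tested targets were higher and 3 lower, with a median of 0.70.

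The other 8 target genes that rose, named after their values were seen, were socs3b, mmp9, cebpb, irf8, litaf, fas, mcl1a and irf1b, by 1.23 to 2.90 on the log2 scale. In mammals they include a feedback inhibitor of cytokine receptors (socs3b), a gelatinase (mmp9), a transcription factor of acute phase and myeloid genes (cebpb) and a survival protein (mcl1a). The 3 others that were called fell. vcam1b, an adhesion molecule gene, had log2 signals of 9.999 and 9.93 in WT and 7.26 and 7.08 in mutants, a difference of -2.80 ± 0.18 (SE, adjusted p = 0.00842). sod2, the mitochondrial superoxide dismutase gene, went from 13.65 and 13.64 to 12.21 and 11.87, a difference of -1.61 ± 0.20 (SE, adjusted p = 0.0213). myca, a Myc gene, went from 8.41 and 8.45 to 6.82 and 7.05, a difference of -1.49 ± 0.18 (SE, adjusted p = 0.0204). All 4 arrays were well above background for each of these 3. The 14 calls among the 34 tested targets went in both directions. The list was chosen with earlier results of these data known, and its share of calls was not tested against that of other genes.

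**Figure D3:**
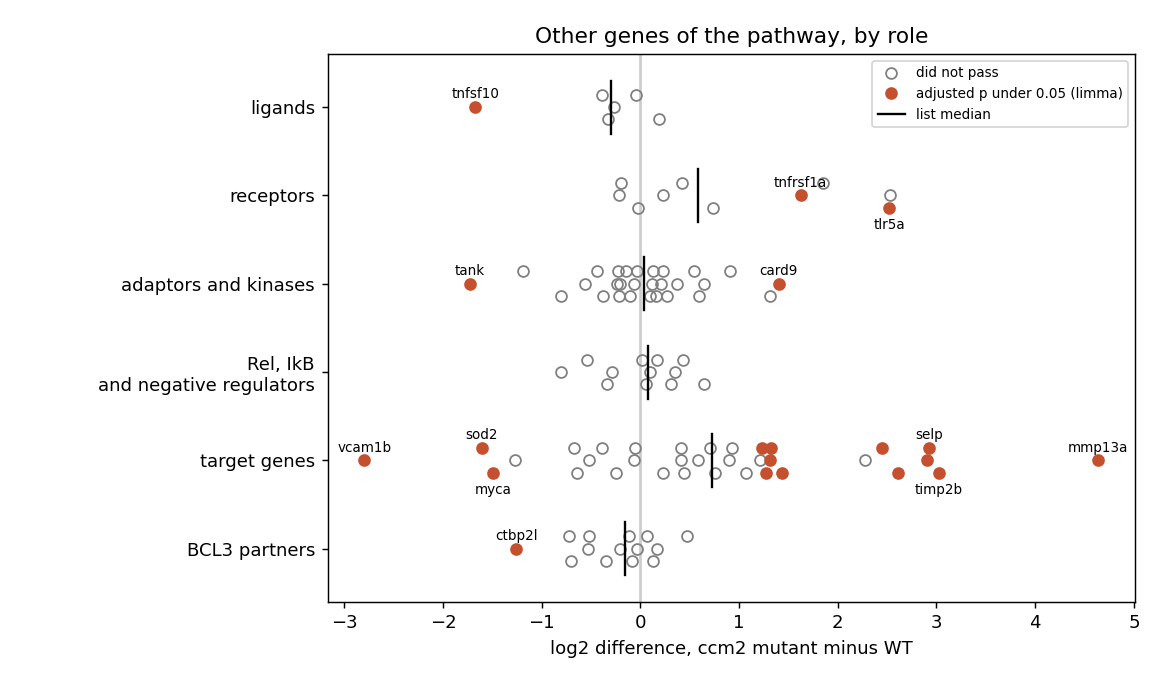
Log2 difference between ccm2 mutant and WT hearts for each tested gene of the 6 lists, by role (filled points passed limma's test, open points did not, vertical bars are list medians). Labels mark called genes named by rule; the target list reaches from -2.80 (vcam1b) to 4.64 (mmp13a), and the Rel, IkB and negative regulator list has no filled point.

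Most leukocyte markers were higher in mutants. Of 8 tested leukocyte markers 6 rose and 0 fell, by 1.94 to 2.64 on the log2 scale. Their summed signal was 1311 and 1134 on the WT arrays and 4501 and 4497 on the mutant arrays. lcp1, the gene of a leukocyte actin-bundling protein, rose by 1.94 ± 0.20 (SE, adjusted p = 0.0152) and coro1a, a gene of a leukocyte coronin, by 2.34 ± 0.17 (SE, adjusted p = 0.00951). mpx, a neutrophil peroxidase gene, and mpeg1.1, a macrophage gene, rose by 2.64 and 2.48 and were named after their values were seen. il1b was not well above background on any array, lyz and ptprc were paired with no probe, and cxcr4b differed by 0.22 ± 0.30 (SE, adjusted p = 0.663). Endothelial and endocardial markers were also higher in part, with 3 of 7 rising and 0 falling. Their summed signals, which rest largely on the brightest genes, were 29595 and 30084 in WT against 62780 and 55832 in mutants. The 2 brightest were tek, an angiopoietin receptor gene (1.07 ± 0.20, SE, adjusted p = 0.0426), and egfl7, the gene of a secreted endothelial protein (1.20 ± 0.17, SE, adjusted p = 0.0264). The third to rise was pecam1a, an endothelial adhesion molecule gene, by 1.34 (named after its value was seen). The others did not pass. nfatc1, an endocardial transcription factor gene, differed by -0.94 ± 0.22 (SE, adjusted p = 0.0654) and kdrl by 0.23. cdh5 differed by 0.49, with -0.16 on its other probe, and fli1 by 0.51, with -0.87 to 0.35 on its other probes. The part of either cell type in the values of bcl3 and the targets was not tested.

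**Figure D4:**
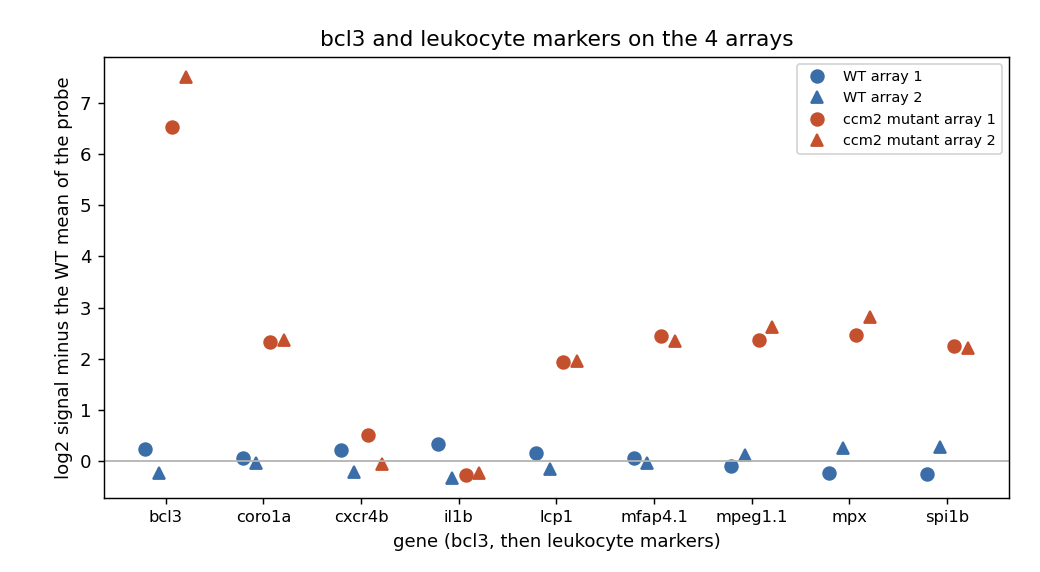
Log2 signal of bcl3 and of the 8 tested leukocyte markers on each array, relative to the WT mean of the same probe (blue WT, red ccm2 mutants, circles array 1, triangles array 2). For bcl3 the mutant arrays lie above 6, but its WT mean is below the background limit, so these heights are no measure of the fold. For 6 of the 8 markers the mutant arrays lie near or above 2, while cxcr4b and il1b stay near 0. il1b was not well above background on any array.

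Of 5 red blood cell markers 4 fell, and 1, the heme synthesis gene alas2, rose by 1.95 (named after its value was seen), with the globin genes hbae3 and hbae1.1 lower by log2 differences of -2.67 and -2.97. hbbe2 and slc4a1a, named after their values were seen, differed by -4.05 and -5.37. The summed signal of these markers was 100128 and 87944 on the WT arrays and 14355 and 10789 on the mutant arrays. The part of red blood cell RNA in the values of bcl3 and the targets was not tested. Of 3 smooth muscle markers 1 fell, which was tagln with a difference of -2.25, named after its value was seen; the brightest, acta2 and myh11a, differed by -0.13 and -0.27 and did not pass. limma called 0 of 3 skin markers, with 1 at an unadjusted p under 0.05. The keratin gene krt4 differed by 0.005. The probes of krt5, also a keratin gene, disagreed: the brightest of 5 gave 0.85 and the others -0.19 to 0.79. Liver and gut markers had 0 of 3 called and 1 at an unadjusted p under 0.05. Their summed signal was 32056 on WT array 1 against 4824 on WT array 2, and 9946 and 9362 on the mutant arrays. The brightest of them, tfa, a transferrin gene, differed by 0.06 ± 0.97 (SE), and fabp10a, a liver fatty acid-binding protein gene, by -3.06 ± 1.03 (SE). One target gene, hamp, the gene of the liver hormone hepcidin, went with that contrast within WT. Its log2 signal was 8.50 on WT array 1 and 2.62, below the background limit, on WT array 2. On the mutant arrays it was 7.89 and 7.78. hamp was singled out after its values were seen, and the part of liver RNA in it was not tested.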

How the data were processed

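Intensity values deposited by the authors came from Agilent Feature Extraction 10.5.1.1. Its processed signals, per the file headers, had background and spatial trend removed on every array, and dim spots carried surrogates. The deposited table had no scaling between arrays, since the 75th percentile of each column matched its array's header. Raw median signals were used in 1 alternative. The header file gave quality statistics. In it the barcodes of both mutant arrays stood under each other's block name; the names were followed.

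Repeated spots were averaged on the log2 scale (43603 probes). From log2 signals the 75th percentile of the array was subtracted, and 1 constant was added to all. Probes brighter than the array's 40th percentile on at least 2 arrays were fitted by lmFit and eBayes (limma 3.58.1, R 4.3.3; two-sided), with p-values adjusted by Benjamini-Hochberg over all 26824 tested probes and calls at 0.05. A gene counts through its brightest tested probe. For a fold given as a bound, each array of the dim group entered at its background limit or its own signal, whichever was higher. The fit was also run on simulated data with noise independent between probes, and nothing here rests on that run.

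Named were all members, the largest called changes of each list (up to 3 each way) or the 2 smallest p, the 5 genes nearest to bcl3 and the 2 brightest of each marker list. Members and lists were chosen with earlier results of these data known. Promoter and protein sequences were not used here. Genome coordinates are not given because the array and the reference annotation use different builds. Figures were drawn with matplotlib 3.10.9.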

Additional observations from a re-analysis of the deposited data

How the results depend on the processing

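bcl3 was higher in mutants under all 10 alternatives that tested it, by fitted differences of 2.23 (normexp on raw median signals, offset 50) to 7.51 that use WT signals below the background limit; the stricter filter (above the 60th percentile on all 4 arrays) leaves it out. nfkbiaa stayed higher (0.54 to 0.85) and nfkb2 lower (-0.52 to -0.28) under 11 of 11, and nfkbiab kept its sign in 9 of 12. A filter or the replicate block cannot change a fitted difference. Leaving out an array cannot turn its sign where the groups do not overlap. For bcl3, nfkbiaa and nfkb2, only a change of scaling or of background correction could therefore have turned the sign. The 1 member call became 2 with no scaling (nfkbiaa added) and 3 with normexp on raw median signals (nfkbiaa and nfkb2 added), and ranged from 0 to 1 on leaving out an array; under the stricter filter it was nfkbiaa. The 1975 called genes became 1118 with no filter, 874 with a replicate block for the number, and 0 to 567 on leaving out an array (0 without either mutant array, with 8394 and 9066 probes at an unadjusted p under 0.05). The 20 calls among pathway genes became 9 with the replicate block and 0 to 8 on leaving out an array. Samples of one number had deviations from their group means that correlated at 0.071. With 2 arrays per group this value cannot show whether such samples were collected together, and the labels do not say. Higher genes were 47.3% of calls, 58.2% with median scaling and 62.7% with no scaling, which moved the median of all genes from -0.04 to 0.11 and 0.17. The count of 2 members with a group not well above background was the same when 45% of features were taken as above it. Signal over background limits rela and the fold of bcl3.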
